A study of Mus musculus with 12 samples.

Results

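The genes described here are 34 genes of glycolysis and of the response to hypoxia-inducible factor (HIF), read in macrophages grown from mouse bone marrow (bone marrow-derived macrophages, BMDMs). They are a list of named genes: 22 act in glucose uptake, the glycolytic steps and the handling of lactate and pyruvate, and 12 are the HIF1 alpha subunit, prolyl hydroxylases and other HIF targets. All 34 names matched a row among the 54532 genes of the count table, and all 34 were among the 15338 genes that passed the filter on low counts. The study set BMDMs with the R150X allele of Gpnmb (GpnmbR150X) beside control BMDMs (WT), with oxidised low-density lipoprotein (OxLDL) or without treatment. The 4 groups were R150X cells with OxLDL, WT cells with OxLDL, untreated R150X cells and untreated WT cells, with 3 libraries each. The strain of every group was labelled as a cross of DBA/2 and C57BL/6 with further backcrossing to C57BL/6, and the age and sex of the mice and the dose and duration of OxLDL are not stated in the labels. The labels did not say whether the 3 libraries of a group came from separate mice, cultures or pools, so p-values measure only the spread between these libraries, which may be technical.

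Glycolysis takes glucose from the membrane transporters through hexokinase, phosphofructokinase and aldolase to pyruvate, which is either made into lactate by lactate dehydrogenase and exported or taken into mitochondria. HIF is a transcription factor made of an alpha and a beta subunit. When oxygen is present, prolyl hydroxylases mark the alpha subunit for destruction through the von Hippel-Lindau protein, and when oxygen is low or in inflammatory macrophages the alpha subunit persists and raises many glycolytic genes, together with genes such as Bnip3 and Egln3. Foam cells are macrophages that have filled with lipid after taking up modified lipoprotein.

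The libraries held 14838969 to 18222868 counts each. Levels are given as CPM, counts scaled to library size with TMM factors of 0.969 to 1.05, on which 3 counts amount to 0.158 to 0.209 CPM. Gpnmb, the mutated gene, stood at 704, 691 and 724 CPM in R150X cells with OxLDL, against 12552, 12355 and 12615 CPM in WT cells with OxLDL. Without treatment it stood at 363, 382 and 411 CPM in R150X cells, against 5374, 5311 and 5305 CPM in WT cells, so that every library fitted its genotype label. Chi-square per degree of freedom between replicates was 9.23 and 10.1 for untreated R150X replicate 1 against replicates 2 and 3, and 2.31 to 4.76 for all other pairs. Xist, transcribed from the inactive X chromosome of females, was at 228 to 349 CPM in the 6 R150X libraries and at 0 to 2.75 CPM in the 6 WT libraries, while Y-linked Ddx3y was at 51.3 to 60.1 CPM in R150X libraries and at 83.6 to 100.4 CPM in WT libraries. Every R150X library thus held Xist and Y-linked transcripts together, as a mix of male and female cells would, while the WT libraries held little or no Xist. Sex composition and genotype therefore cannot be told apart in any genotype comparison. A mix of male and female cells would take more than 1 mouse per R150X library. Whether the 3 libraries of a group were drawn from the same pool of cells is not stated. All 10 defining macrophage markers were detected, and their sums moved with the groups. With OxLDL they summed to 20732.5 to 22185 CPM in R150X cells and 24282 to 25989 CPM in WT cells. Without treatment they summed to 22279 to 23142 CPM in R150X cells and 20497 to 20829 CPM in WT cells. At an adjusted p under 0.05, 4 were higher and 2 lower in untreated R150X cells (60.0%, beside 33.0% of all genes). With OxLDL 1 was higher and 5 lower (60.0%, beside 13.0%). The OxLDL response differed between genotypes for 8, with 1 higher and 7 lower in R150X cells (80.0%, beside 8.32%). Markers of other cell types moved as well. Of the 12 stromal markers 10 were called lower and 1 higher in untreated R150X than untreated WT cells (91.7%, beside 33.0% of all genes). They summed to 6653 to 7072 CPM in R150X cells with OxLDL and 7476 to 8269 CPM in WT cells with OxLDL. Without treatment they summed to 10877 to 10954 CPM in R150X cells and 16406 to 16613 CPM in WT cells. The 12 neutrophil markers, of which 10 passed the filter, summed to 40.7 to 42.6, 128 to 147, 193 to 210.0 and 424 to 449 CPM in the same order of groups, and none of either list was at 0 in all libraries. Adipocyte markers, of which 4 of 7 passed the filter and Lep was at 0, went the other way and summed to 40.1 to 45.4, 2.78 to 4.90, 3.33 to 4.34 and 0.949 to 1.13 CPM in that order. Osteoclast markers, of which 5 of 7 passed, summed to 157 to 164, 130.1 to 143, 451 to 470.0 and 275 to 281 CPM. In a bulk library fewer cells of a type and less RNA per cell cannot be told apart.

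**Figure D1:**
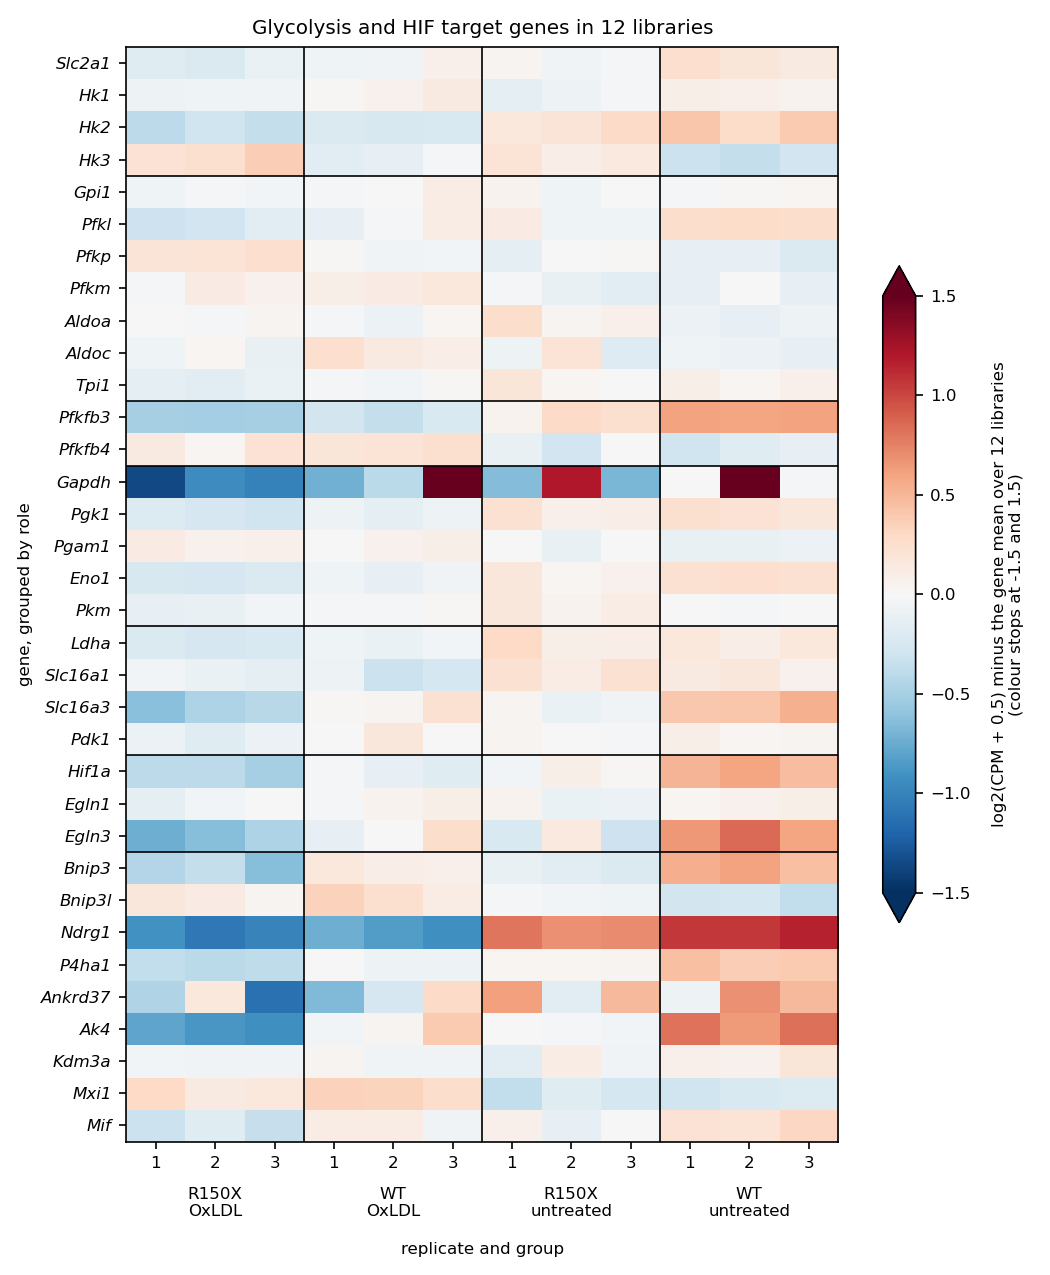
Heat map of the 34 genes (rows, grouped by role) in the 12 libraries (columns, 3 per group). Colour gives log2(CPM + 0.5) minus the gene's mean over all libraries and stops at -1.5 and 1.5; Ndrg1, Ak4, Egln3, Hif1a and Pfkfb3 are red, above their mean, in all 3 untreated WT libraries, and Gapdh varies within groups.

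Per kilobase of the principal transcript, the members spanned a wide range of levels in untreated WT cells. Pkm (pyruvate kinase) led with 739 CPM per kb, followed by Aldoa (aldolase A) with 693 CPM per kb, Eno1 (enolase) with 404 CPM per kb, Ldha (lactate dehydrogenase A) with 386 CPM per kb and Pgk1 (phosphoglycerate kinase) with 293 CPM per kb. The lowest levels belonged to Ak4 with 4.84 CPM per kb, Aldoc with 2.31 CPM per kb and Ankrd37 with 2.15 CPM per kb. Together the 34 genes held 0.732% to 0.904% of the counts of a library.

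In untreated cells, R150X BMDMs had less of most HIF-related members than WT BMDMs and changes in both directions among the glycolytic enzymes. Of the 34 genes, 14 fell and 4 rose in untreated R150X cells at an adjusted p under 0.05 in edgeR's quasi-likelihood test, beside 33.0% of all genes tested that changed, 14.8% lower and 18.1% higher. Among the 12 HIF-related members 7 fell and 1 rose, and among the 22 glycolytic members 7 fell and 3 rose. Differences and responses are signed log2 fold changes throughout. Their median was -0.09 for the 34 genes and 0.01 for all genes tested. With OxLDL on both sides, 13 members were lower and 2 higher in R150X than WT cells, beside 13.0% of all genes that changed, 6.92% lower and 6.1% higher, and the median was -0.15 for the 34 genes and 0.00 for all genes. Pfkl, Pfkfb3, Eno1, Slc16a3, Hif1a, Egln3, Bnip3, P4ha1, Ak4 and Mif, 10 genes, were lower in R150X cells in both comparisons, and Hk3 was higher in both. These genotype comparisons have no library in common, but they come from 1 model and share the confounding of sex composition with genotype. How many of all genes were called the same way in both was not counted, so the 10 genes have no background beside them. Without replicate 1 of the untreated R150X group the untreated comparison called 15 members lower and 4 higher. Without replicate 2 of the R150X OxLDL group the OxLDL comparison called 7 members lower. The summed stromal and neutrophil markers were lower in R150X cells in both comparisons, and those of adipocytes and osteoclasts were higher. With OxLDL, however, only 1 of 5 osteoclast markers was called higher in R150X cells and 1 lower (40.0%, beside 13.0% of all genes). Of the 12 stromal markers 4 were then called lower and 1 higher (41.7%). The summed macrophage markers were higher in R150X cells without treatment and lower with OxLDL. The part of these cell types in the differences was not tested.

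**Figure D2:**
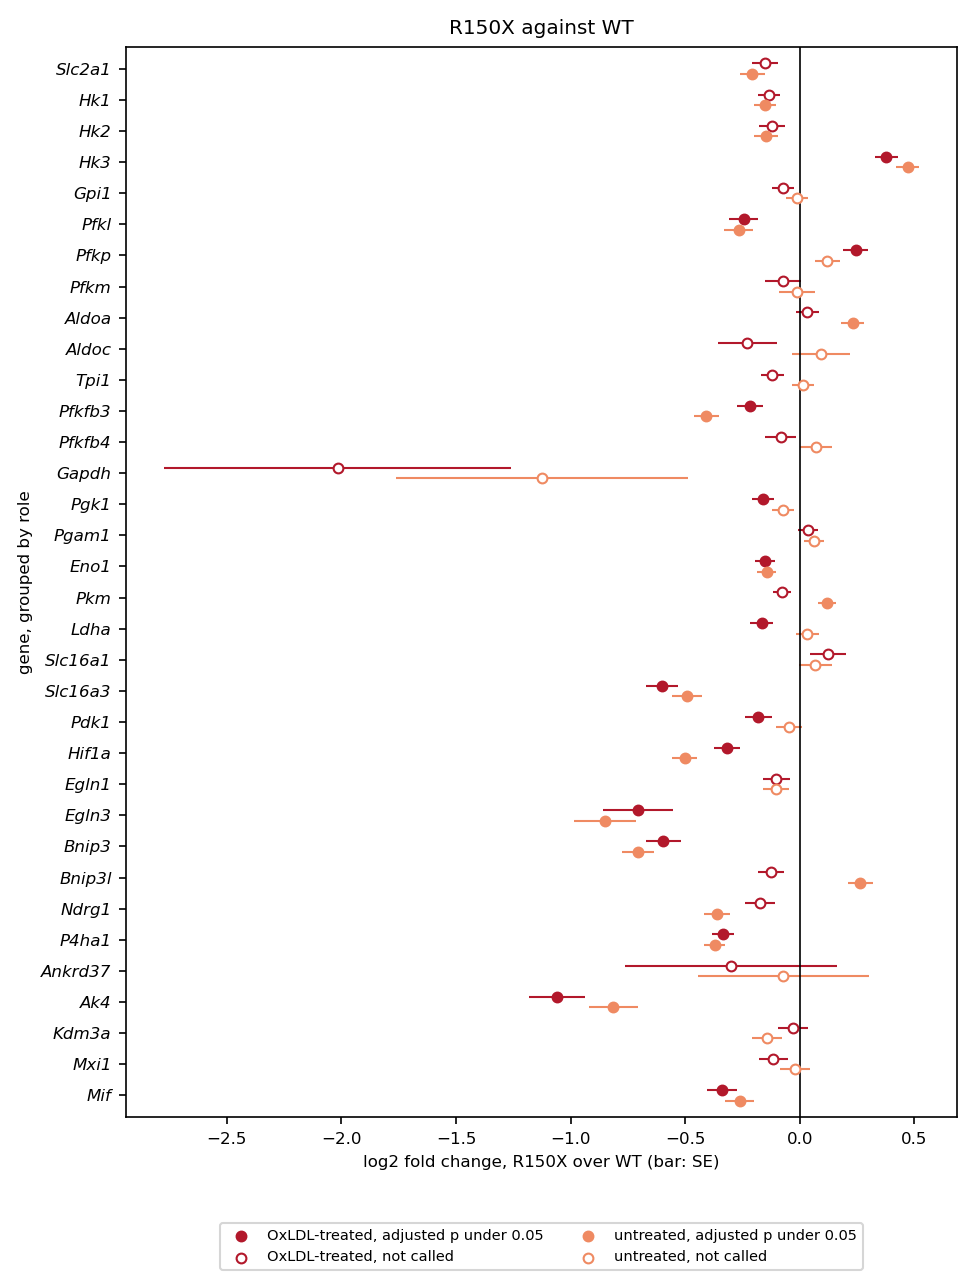
Log2 fold change of R150X over WT (horizontal axis, bar = SE) for the 34 genes, with OxLDL-treated cells in dark red above untreated cells in orange; filled points passed an adjusted p of 0.05. Slc16a3, Hif1a, Egln3, Bnip3, P4ha1 and Ak4 lie left of 0 in both comparisons and Hk3 lies right of it; the wide bars are those of Gapdh and Ankrd37.

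OxLDL lowered more members than it raised in either genotype. In R150X cells 19 members fell and 6 rose with OxLDL, beside 39.0% of all genes that changed, 20.6% lower and 18.4% higher. In WT cells 16 fell and 6 rose, beside 45.8% of all genes that changed, 23.1% lower and 22.7% higher. The median log2 fold change of the 34 genes was -0.23 in R150X cells and -0.20 in WT cells. The same 16 genes fell in both genotypes, which are tested on separate libraries, and Hk3, Pfkfb4, Pgam1, Bnip3l and Mxi1 rose in both. The number of all genes called the same way with OxLDL in both genotypes was not counted. These shared calls therefore have no background beside them. Each OxLDL comparison shares its libraries with the genotype comparisons, so values across the 2 kinds of comparison are not independent. The labels give no batch, so a difference in preparation between treated and untreated libraries could not be told apart from a response to OxLDL. The summed stromal, neutrophil and osteoclast markers were also lower with OxLDL in both genotypes, those of adipocytes were higher, and the sum of the mitochondrially encoded mRNAs was higher, at 16622 to 18902 CPM in R150X cells with OxLDL, 17535 to 20276 CPM in WT cells with OxLDL, 12804 to 13652 CPM in untreated R150X cells and 12381 to 12985 CPM in untreated WT cells. In WT cells, however, 2 of the 10 neutrophil markers tested were called higher with OxLDL and 5 lower. Of the 5 osteoclast markers tested 1 was called higher there and 3 lower. The summed macrophage markers were lower with OxLDL in R150X cells and higher in WT cells. In R150X cells 4 of the 10 macrophage markers were called higher and 6 lower. In WT cells 4 were called higher and 3 lower. The part of these cell types and of the mitochondrial mRNAs in the responses was not tested. Without replicate 2 of the untreated R150X group only 3 members were higher with OxLDL in R150X cells.

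**Figure D3:**
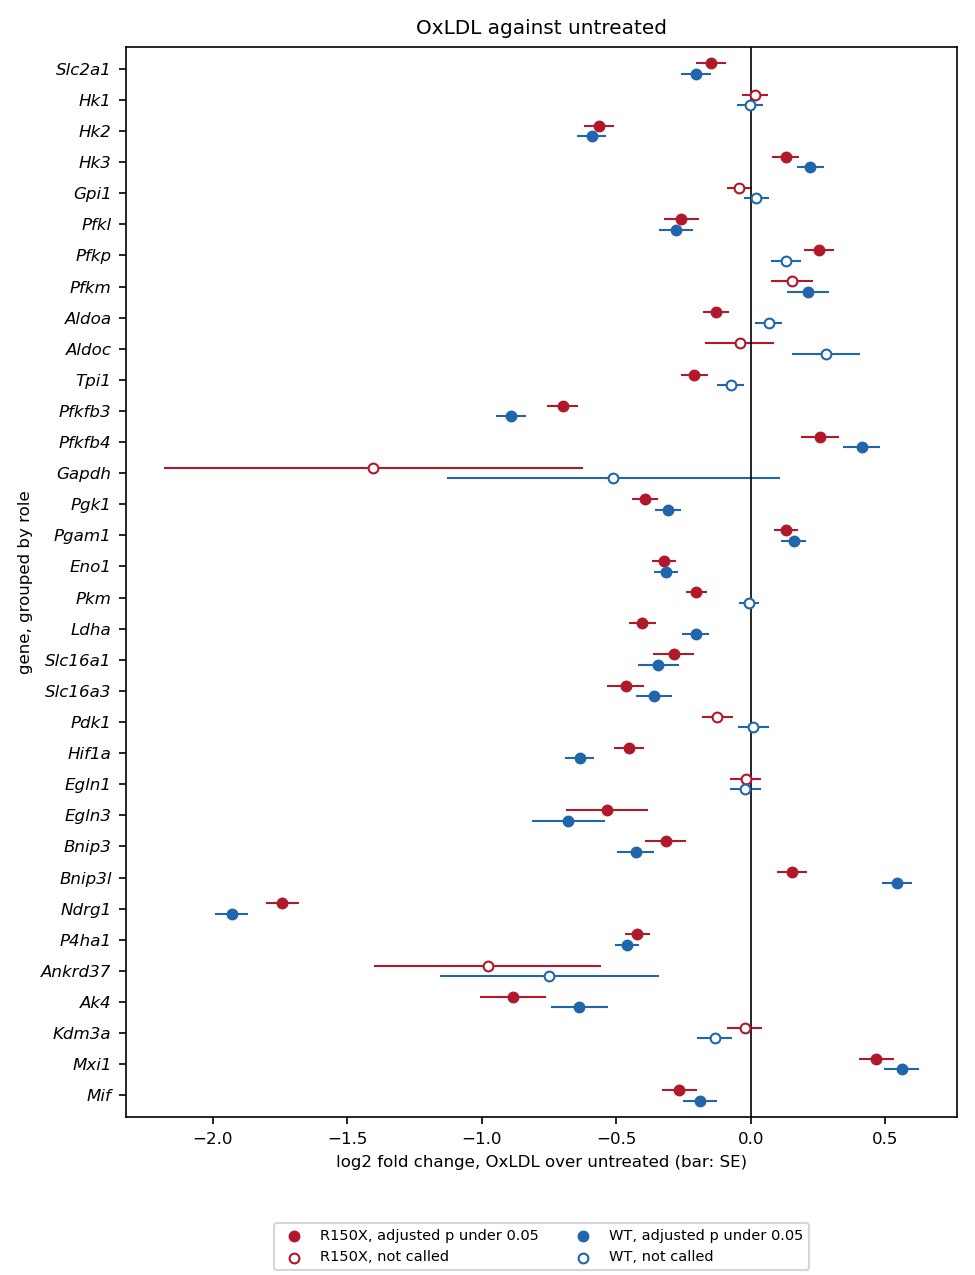
Log2 fold change of OxLDL over untreated cells (horizontal axis, bar = SE) for the 34 genes, with R150X in red above WT in blue; filled points passed an adjusted p of 0.05. Ndrg1 lies farthest left at -1.74 in R150X and -1.93 in WT cells, and Mxi1, Pfkfb4 and Bnip3l lie right of 0.

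Hif1a encodes the oxygen-regulated alpha subunit of HIF1 and lies on chromosome 12 from 73901375 to 73947530 (GRCm38, plus strand). It stood at 177, 193 and 183 CPM in untreated R150X cells, against 259, 275 and 250.3 CPM in untreated WT cells. With OxLDL it stood at 138, 138 and 128 CPM in R150X cells, against 178, 167 and 160.2 CPM in WT cells. All R150X libraries lay below all WT libraries of the same treatment, and all OxLDL libraries below all untreated libraries of the same genotype. The log2 fold change of R150X over WT for Hif1a was -0.50 without treatment (SE 0.0541, adjusted p = 4.48e-07) and -0.32 (SE 0.0554, adjusted p = 0.000355) with OxLDL. The change with OxLDL was -0.45 (SE 0.0551, adjusted p = 8.9e-07) in R150X cells and -0.64 (SE 0.0545, adjusted p = 3.31e-09) in WT cells. These are mRNA levels, and HIF1 alpha protein was not measured here.

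Egln3, a HIF-induced prolyl hydroxylase that acts on HIF alpha subunits, was low, and it too was lower in R150X than WT cells of the same treatment. It was counted at 7.20, 9.47 and 6.76 CPM in untreated R150X cells, against 13.6, 15.7 and 13.0 CPM in untreated WT cells. In the presence of OxLDL the counts were 4.89, 5.26 and 6.03 CPM in R150X cells, against 7.77, 8.44 and 10.3 CPM in WT cells, again without overlap. The genotype difference was -0.85 (SE 0.135, adjusted p = 5.79e-05) without treatment and -0.71 (SE 0.153, adjusted p = 0.00288) with OxLDL, and the OxLDL response was -0.54 in R150X cells (adjusted p = 0.00818) and -0.68 in WT cells (adjusted p = 0.000295). The response in R150X cells was lost without replicate 2 of the untreated R150X group (adjusted p = 0.0758). Egln1, the main prolyl hydroxylase under normal oxygen, passed in no comparison, and its means lay between 83.7 CPM in R150X cells with OxLDL and 91.0 CPM in untreated WT cells. Its untreated genotype difference was -0.10 with a 95% interval of -0.22 to 0.02. The difference was called with scaling by totals alone (-0.18, adjusted p = 0.0183). It was also called without replicate 1 of the untreated R150X group (-0.16, adjusted p = 0.027).

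Upstream sequence is shown for the members lower or higher in R150X cells in both genotype comparisons that had the smallest adjusted p without treatment, Bnip3, Hif1a, Hk3 and P4ha1. Each is a RefSeq promoter window of GRCm38.p6, 250 bases before to 50 bases after the annotated start, written 5′ to 3′ on the gene's strand. The last 30 bases of the Bnip3, Hk3 and P4ha1 windows occur in GENCODE transcripts, while those of the Hif1a window, which lies inside the annotated gene, occur in none, so its start is less certain. Capitals mark the HIF core motif in both of its forms, ACGTG and GCGTG, on either strand, where they read CACGT and CACGC on the opposite strand. A CACGTG run holds ACGTG on both strands and counts as a pair of overlapping matches.
Bnip3 (chr7:138909457-138909756, minus strand): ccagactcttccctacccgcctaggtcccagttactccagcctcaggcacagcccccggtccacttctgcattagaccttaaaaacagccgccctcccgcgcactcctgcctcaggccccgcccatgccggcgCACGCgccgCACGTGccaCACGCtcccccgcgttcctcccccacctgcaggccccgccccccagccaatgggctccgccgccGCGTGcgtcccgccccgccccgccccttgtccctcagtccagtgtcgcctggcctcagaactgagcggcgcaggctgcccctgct
Hif1a (chr12:73907617-73907916, plus strand): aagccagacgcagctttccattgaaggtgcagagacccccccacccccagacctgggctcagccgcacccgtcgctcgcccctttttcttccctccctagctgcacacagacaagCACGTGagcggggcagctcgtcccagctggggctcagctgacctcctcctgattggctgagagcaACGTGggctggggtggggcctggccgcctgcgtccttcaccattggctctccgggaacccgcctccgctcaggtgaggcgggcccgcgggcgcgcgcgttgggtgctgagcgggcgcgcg
Hk3 (chr13:55021336-55021635, minus strand): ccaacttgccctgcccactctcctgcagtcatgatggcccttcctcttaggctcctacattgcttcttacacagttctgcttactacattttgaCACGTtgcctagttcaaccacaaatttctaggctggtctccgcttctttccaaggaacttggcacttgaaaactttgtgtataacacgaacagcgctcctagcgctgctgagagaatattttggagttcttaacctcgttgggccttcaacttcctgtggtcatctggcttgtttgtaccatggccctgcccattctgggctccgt
P4ha1 (chr10:59323046-59323345, plus strand): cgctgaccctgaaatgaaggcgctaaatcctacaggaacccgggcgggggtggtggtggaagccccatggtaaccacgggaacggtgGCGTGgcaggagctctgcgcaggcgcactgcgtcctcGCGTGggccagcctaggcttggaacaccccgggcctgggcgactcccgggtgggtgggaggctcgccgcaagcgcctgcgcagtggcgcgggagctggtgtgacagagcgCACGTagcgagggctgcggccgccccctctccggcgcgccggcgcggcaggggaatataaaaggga
The Bnip3 window held 5 matches, those of Hif1a and P4ha1 held 3 each, and that of Hk3 held 1. Windows were found for 32 of the 34 members, and 42 of their 52 windows, 80.8%, held at least 1 match. Of the 32851 windows of all genes, 43.8% held one. The members were listed as glycolytic genes and HIF targets, so a higher share is a property of the list. Windows of 1 gene can overlap, as for Ak4 and Eno1, so that the same site was counted more than once. A match describes letters in the window and is not a measured site of binding.

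Bnip3 and Bnip3l encode related mitochondrial proteins that act in mitophagy and are both known HIF targets, and they differed here. Bnip3 stood at 32.4, 31.2 and 29.9 CPM in untreated R150X cells, against 51.1, 53.3 and 48.0 CPM in untreated WT cells. With OxLDL it was at 25.6, 27.1 and 22.3 CPM in R150X cells, against 38.9, 37.4 and 36.9 CPM in WT cells. The R150X libraries lay below the WT libraries in both treatments, with log2 fold changes of -0.71 (SE 0.0702, adjusted p = 1.47e-07) and -0.60 (SE 0.0747, adjusted p = 6.97e-06), and OxLDL lowered it by a further log2 change of -0.32 in R150X cells (adjusted p = 0.00196) and -0.43 in WT cells (adjusted p = 3.13e-05). Bnip3l stood at 196, 194 and 190.5 CPM in untreated R150X cells, against 164, 165 and 154 CPM in untreated WT cells, which is a rise of 0.26 (SE 0.0563, adjusted p = 0.00113). With OxLDL it was at 225, 217 and 205 CPM in R150X cells, against 254, 235 and 216 CPM in WT cells, where the libraries overlapped and the difference of -0.13 missed the threshold (adjusted p = 0.16). OxLDL raised Bnip3l by 0.54 in WT cells (adjusted p = 6.18e-08) and by 0.15 in R150X cells (adjusted p = 0.0344). The rise in R150X cells was lost without replicate 1 or 2 of the R150X OxLDL group or replicate 2 or 3 of the untreated R150X group (adjusted p = 0.0715 to 0.144), and when libraries were scaled by their totals alone (adjusted p = 0.0698). The Bnip3 and Bnip3l transcripts share 21.9% and 25.1% of their 50-base windows with pseudogenes, so part of their reads may have been counted elsewhere.

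Ak4, a mitochondrial adenylate kinase, showed the largest called genotype difference with OxLDL. It was at 12.2, 11.95 and 11.9 CPM in untreated R150X cells, against 21.9, 19.3 and 22.1 CPM in untreated WT cells, and at 6.84, 6.46 and 6.21 CPM in R150X cells with OxLDL, against 11.9, 12.7 and 16.2 CPM in WT cells with OxLDL. R150X cells held 56.9% of the fitted WT level without treatment (log2 fold change -0.81, SE 0.106, adjusted p = 5.26e-06) and 48.0% of it with OxLDL (-1.06, SE 0.122, adjusted p = 2.34e-06). No groups of a comparison overlapped. OxLDL lowered Ak4 by -0.88 in R150X cells (adjusted p = 5.07e-06) and -0.64 in WT cells (adjusted p = 3.94e-05). Ak4 shares 11.3% of its 50-base windows with a pseudogene.

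P4ha1, a subunit of the enzyme that hydroxylates proline in collagen, was at 162, 163 and 164 CPM in untreated R150X cells, against 218, 206 and 209.9 CPM in untreated WT cells. With OxLDL it was at 123, 119.9 and 122 CPM in R150X cells, against 159, 151 and 151 CPM in WT cells. The replicates lay close together and no groups of a comparison overlapped. The genotype difference was -0.37 (SE 0.0453, adjusted p = 2.28e-06) without treatment and -0.34 (SE 0.0464, adjusted p = 2.45e-05) with OxLDL. Stromal cells also use this enzyme, and the summed stromal markers followed the same order of groups, from 6653 to 7072 CPM in R150X cells with OxLDL up to 16406 to 16613 CPM in untreated WT cells; their part in the P4ha1 result was not tested.

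Mif, a macrophage cytokine, was at 124, 108 and 118 CPM in untreated R150X cells, against 137, 135 and 147 CPM in untreated WT cells, and at 94.1, 104 and 92.4 CPM in R150X cells with OxLDL, against 128, 127 and 113 CPM in WT cells with OxLDL. It was lower in R150X cells in both treatments without overlap, by -0.26 (SE 0.0636, adjusted p = 0.0032) and -0.34 (SE 0.0649, adjusted p = 0.000911). OxLDL lowered Mif by -0.27 in R150X cells (adjusted p = 0.00238) and by -0.19 in WT cells (adjusted p = 0.0199), and the call in WT cells was lost without replicate 3 of either WT group (adjusted p = 0.102 to 0.126). Mif shares 51.1% of its windows with pseudogenes, so its level is uncertain.

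Ndrg1, a hypoxia-responsive gene linked to differentiation, had the largest OxLDL response of the 34 genes. It stood at 38.8, 34.5 and 36.3 CPM in R150X cells with OxLDL, against 128, 118 and 121 CPM in untreated R150X cells. In WT cells it stood at 44.0, 40.7 and 38.7 CPM with OxLDL, against 154, 154 and 163 CPM without treatment. OxLDL-treated cells thus held 29.9% of the untreated level in R150X cells (log2 fold change -1.74, SE 0.0620, adjusted p = 1.35e-15) and 26.2% in WT cells (-1.93, SE 0.0615, adjusted p = 2.03e-16). Between genotypes it was lower in untreated R150X cells by -0.36 (SE 0.0563, adjusted p = 4.71e-05), while with OxLDL the libraries overlapped and -0.17 missed the threshold (adjusted p = 0.0942).

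Mxi1, a Myc antagonist, moved the other way with OxLDL. It stood at 52.7, 47.0 and 47.8 CPM in R150X cells with OxLDL, against 33.0, 37.8 and 35.7 CPM in untreated R150X cells, and at 54.5, 53.9 and 51.3 CPM in WT cells with OxLDL, against 34.7, 36.4 and 37.1 CPM in untreated WT cells. Its OxLDL response was 0.47 in R150X cells (SE 0.0659, adjusted p = 6.56e-06) and 0.56 in WT cells (SE 0.0653, adjusted p = 3.55e-07), and it passed in neither genotype comparison. Kdm3a, a histone demethylase, and Ankrd37, a small ankyrin-repeat protein, passed in no comparison of the main fit. With scaling by totals alone Kdm3a was called lower in untreated R150X cells (-0.22, adjusted p = 0.0139) and with OxLDL in WT cells (-0.25, adjusted p = 0.00399). With low-count genes kept Ankrd37 was called lower with OxLDL in R150X cells (-0.99, adjusted p = 0.01) and WT cells (-0.77, adjusted p = 0.046). Kdm3a group means ran from 52.9 to 59.3 CPM, and Ankrd37 stayed at 0.365 to 2.53 CPM in single libraries, where the 95% interval of the untreated genotype difference spanned -0.85 to 0.70.

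**Figure D4:**
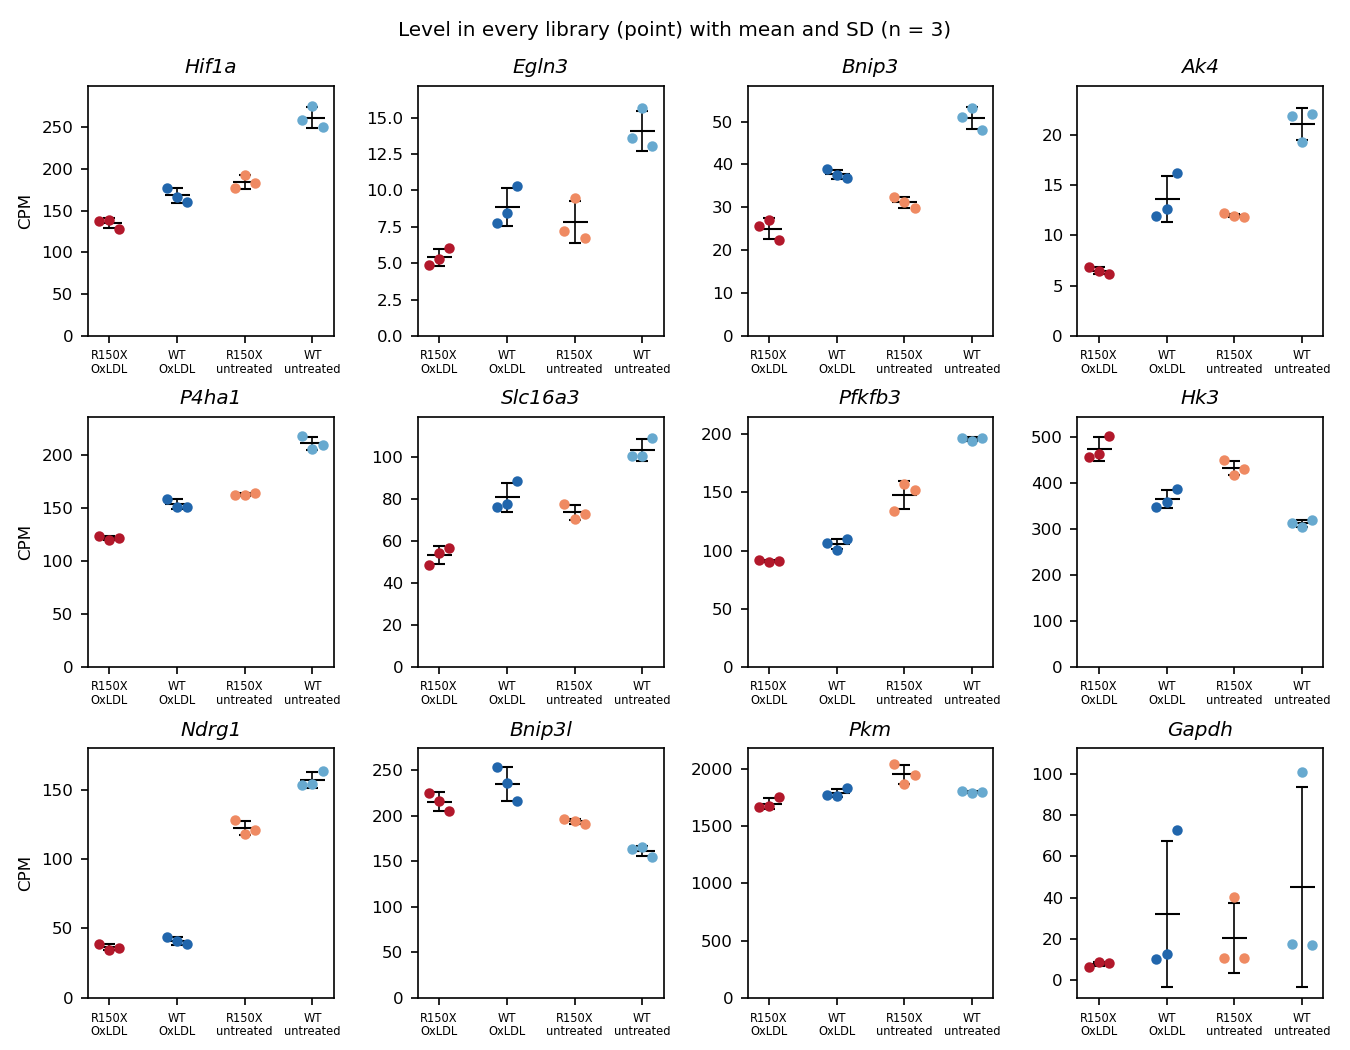
CPM in every library (points) with mean and SD (n = 3) for 12 members, with the groups from left to right R150X with OxLDL, WT with OxLDL, untreated R150X and untreated WT. Ak4 reaches 6.84 CPM at most in R150X cells with OxLDL against at least 19.3 CPM in untreated WT cells, Hk3 is highest in R150X cells, and 3 single libraries stand apart for Gapdh.

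Glucose enters macrophages mainly through GLUT1, encoded by Slc2a1. Slc2a1 was at 102, 95.8 and 97.7 CPM in untreated R150X cells, against 119, 113 and 109.7 CPM in untreated WT cells. With OxLDL it was at 88.0, 85.6 and 93.2 CPM in R150X cells, against 95.3, 96.4 and 105 CPM in WT cells. The libraries did not overlap in either treatment, but the untreated difference of -0.21 passed (SE 0.0550, adjusted p = 0.00636) and the difference with OxLDL of -0.15 did not (adjusted p = 0.0789). It was lower with OxLDL in WT cells by -0.20 (adjusted p = 0.00484) and in R150X cells by -0.15 (adjusted p = 0.0392). The call in R150X cells was lost in 5 of 12 fits that left out 1 library, those without replicate 1 or 2 of the R150X OxLDL group, replicate 1 or 3 of the untreated R150X group, or replicate 2 of the untreated WT group (adjusted p = 0.0508 to 0.162), and when only the compared groups were fitted (adjusted p = 0.074).

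The 3 hexokinases, which trap glucose in the cell by phosphorylation, moved in different directions. Hk3, the isoenzyme most abundant here, lies on chromosome 13 from 55005985 to 55021385 (GRCm38, minus strand). It stood at 450.1, 419 and 432 CPM in untreated R150X cells, against 313, 306 and 321 CPM in untreated WT cells, and at 456, 463 and 504 CPM in R150X cells with OxLDL, against 349, 359 and 387 CPM in WT cells with OxLDL. All R150X libraries lay above all WT libraries. The genotype difference was 0.47 (SE 0.0510, adjusted p = 4.89e-07) without treatment and 0.38 (SE 0.0509, adjusted p = 1.77e-05) with OxLDL. Hk3 was also higher with OxLDL, by 0.13 in R150X cells (adjusted p = 0.0478) and 0.22 in WT cells (adjusted p = 0.00121), and neither call held when libraries were scaled by their totals alone (adjusted p = 0.094 in R150X and 0.0837 in WT cells). The call in R150X cells was also lost with low-count genes kept (adjusted p = 0.0842), with only the compared groups fitted (adjusted p = 0.0916) and in 8 of 12 fits that left out 1 library, all but those without replicate 1 of the R150X OxLDL group, replicate 1 or 3 of the WT OxLDL group or replicate 1 of the untreated R150X group (adjusted p = 0.0592 to 0.239), and the response was 0.09 without replicate 3 of the R150X OxLDL group.

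Hk2, the inducible hexokinase, was at 68.6, 72.9 and 70.3 CPM in R150X cells with OxLDL, against 100.2, 103 and 109.8 CPM in untreated R150X cells. In WT cells it was at 77.5, 76.2 and 76.6 CPM with OxLDL, against 120.4, 109 and 118 CPM without treatment. The treated libraries lay below the untreated ones in both genotypes, by -0.56 in R150X cells (SE 0.0550, adjusted p = 3.28e-08) and -0.59 in WT cells (SE 0.0547, adjusted p = 1.09e-08). In untreated cells Hk2 was lower in R150X by -0.15 (adjusted p = 0.0375), with overlapping libraries, and Hk1, the housekeeping isoenzyme, by -0.15 (adjusted p = 0.0211). Both of these calls were lost in some fits that left out 1 library. Hk1 was lost without replicate 1 or 2 of the untreated WT group (adjusted p = 0.0677 to 0.068), and Hk2 without replicate 1 or 3 of that group, replicate 1 or 2 of the untreated R150X group, or replicate 2 of the WT OxLDL group (adjusted p = 0.0502 to 0.165). With OxLDL the genotype differences were -0.12 for Hk2 (adjusted p = 0.184) and -0.13 for Hk1 (adjusted p = 0.0798).

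Per kilobase of transcript, Hk3 made up 77.7 ± 0.84% of the summed hexokinase level in R150X cells with OxLDL (SD, n = 3), 71.0 ± 0.55% in WT cells with OxLDL, 73.7 ± 1.3% in untreated R150X cells and 64.6 ± 0.53% in untreated WT cells. Hk2 held 6.76 ± 0.34%, 8.74 ± 0.44%, 10.4 ± 0.53% and 13.9 ± 0.51% in the same order of groups. These shares restate the levels above and were not tested.

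**Figure D5:**
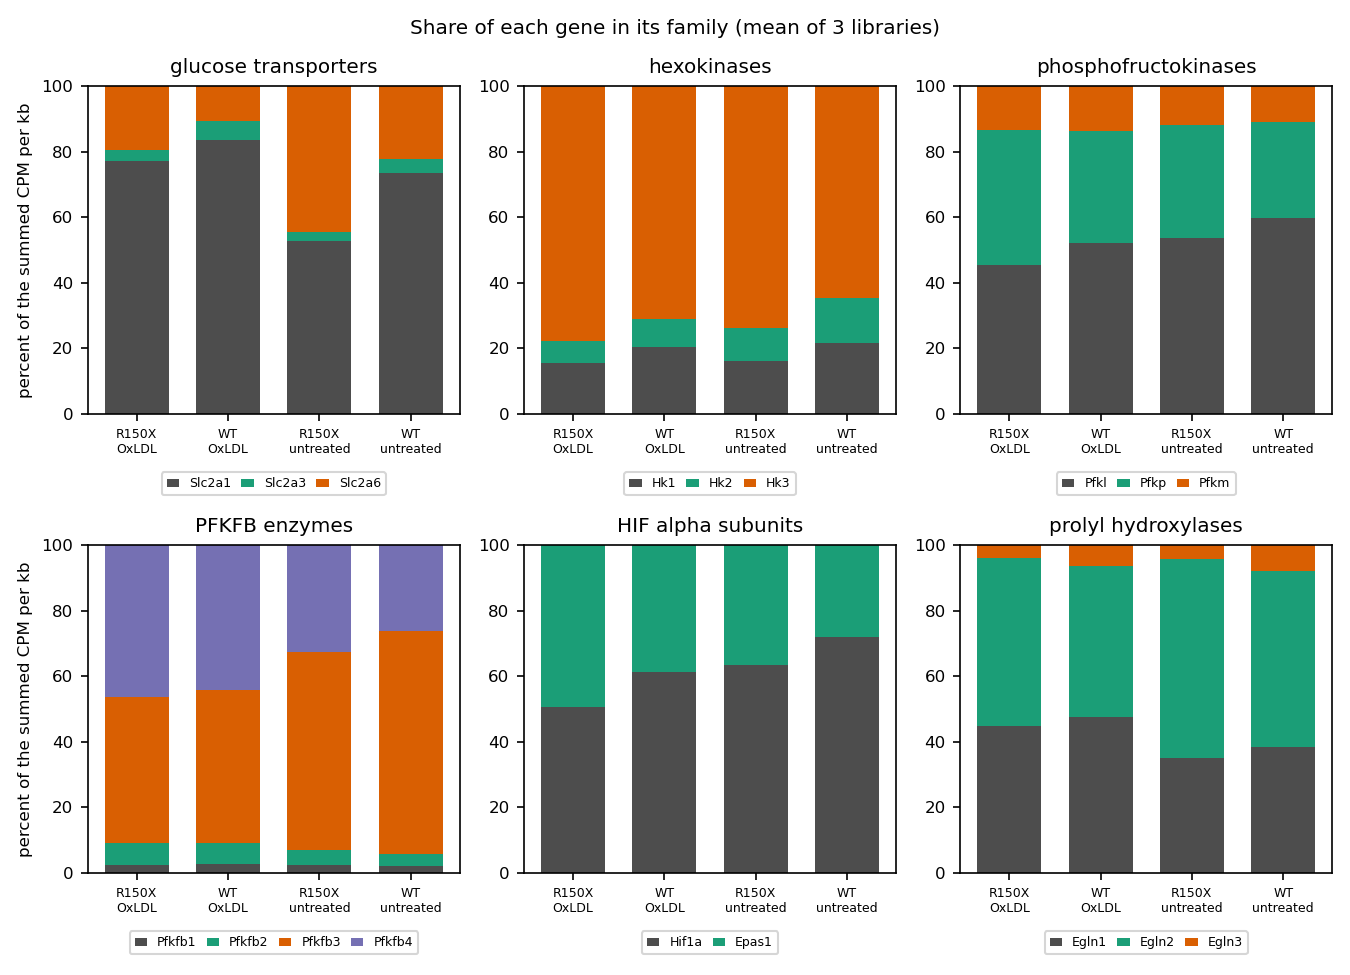
Stacked bars of the share of each gene in the summed CPM per kb of its family (vertical axis, percent, mean of 3 libraries) in R150X cells with OxLDL, WT cells with OxLDL, untreated R150X cells and untreated WT cells. Hk3 holds 77.7% of the hexokinase level in R150X cells with OxLDL and 64.6% in untreated WT cells, and Hif1a holds 50.5% and 71.8% of the summed Hif1a and Epas1 level in those groups.

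In upper glycolysis the 3 phosphofructokinase genes, which encode the committed step, also differed from each other. Pfkl, the liver-type subunit, was at 132, 115 and 116 CPM in untreated R150X cells, against 145, 146 and 146 CPM in untreated WT cells, and at 97.5, 99.0 and 107 CPM in R150X cells with OxLDL, against 111, 119 and 130.4 CPM in WT cells with OxLDL. It was lower in R150X cells in both treatments without overlap, by -0.27 (SE 0.0627, adjusted p = 0.00255) and -0.25 (SE 0.0641, adjusted p = 0.0126), and OxLDL lowered it by -0.26 in R150X and -0.28 in WT cells (adjusted p = 0.00276 and 0.00103). The genotype call with OxLDL was lost without replicate 1 or 2 of the R150X OxLDL group or replicate 3 of the WT OxLDL group (adjusted p = 0.0588 to 0.0762). Pfkp, the platelet-type subunit, was at 101, 102 and 106 CPM in R150X cells with OxLDL, against 89.5, 85.5 and 86.2 CPM in WT cells with OxLDL, and at 80.0, 89.2 and 89.9 CPM in untreated R150X cells, against 81.5, 81.1 and 76.1 CPM in untreated WT cells. It was higher in R150X cells with OxLDL by 0.24 (SE 0.0554, adjusted p = 0.00443) and rose with OxLDL in R150X cells by 0.25 (SE 0.0550, adjusted p = 0.000855). Part of Pfkp overlaps Pitrm1 on the opposite strand, which averaged 53.1 CPM. Per kilobase, Pfkl held 45.2 ± 0.8% of the summed phosphofructokinase level in R150X cells with OxLDL and 59.6 ± 0.84% in untreated WT cells, and Pfkp 41.4 ± 0.51% and 29.3 ± 0.77% (SD, n = 3).

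Pfkm, the muscle-type subunit, was at 23.6, 24.2 and 24.9 CPM in WT cells with OxLDL, against 20.3, 22.2 and 20.3 CPM in untreated WT cells. That rise of 0.21 (adjusted p = 0.0311) was lost with DESeq2 (adjusted p = 0.0798), with scaling by totals alone (adjusted p = 0.318), with low-count genes kept (adjusted p = 0.143), and without replicate 2 or 3 of the WT OxLDL group or replicate 1 or 3 of the untreated WT group (adjusted p = 0.0651 to 0.0985). Aldoa stood at 1347, 1152 and 1187 CPM in untreated R150X cells, against 1053, 1029.8 and 1059.6 CPM in untreated WT cells, a rise of 0.23 (SE 0.0497, adjusted p = 0.00129) with replicate 1 of the R150X group highest. Without that replicate the rise was 0.15 and was still called. With OxLDL it stood at 1113, 1105 and 1152 CPM in R150X cells, against 1097, 1056 and 1141 CPM in WT cells, which overlapped. Aldoa was lower with OxLDL in R150X cells by -0.13 (adjusted p = 0.0453) with overlapping libraries, a call lost with only the compared groups fitted (adjusted p = 0.0996) and in 9 of 12 fits that left out 1 library, all but those without replicate 3 of the WT OxLDL group or replicate 2 or 3 of the untreated R150X group (adjusted p = 0.0506 to 0.211). Without replicate 1 of the untreated R150X group it was -0.06. Tpi1 (triose phosphate isomerase) fell with OxLDL in R150X cells by -0.21 (adjusted p = 0.00187), and its WT response of -0.07 missed the threshold (adjusted p = 0.231). With scaling by totals alone that WT response was -0.19 and called (adjusted p = 0.00275). Gpi1 (glucose phosphate isomerase) and Aldoc (aldolase C) passed in no comparison, with means of 373 to 393 CPM and 6.43 to 7.80 CPM over the groups. Aldoa, Tpi1 and Gpi1 share 13.9%, 7.51% and 19.3% of their 50-base windows with other genes.

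Pfkfb3 and Pfkfb4 make and break down fructose 2,6-bisphosphate, the main activator of phosphofructokinase. Pfkfb3 stood at 134, 157 and 152 CPM in untreated R150X cells, against 197, 194 and 196 CPM in untreated WT cells. With OxLDL it stood at 91.5, 90.3 and 90.9 CPM in R150X cells, against 106, 101 and 109.9 CPM in WT cells. No groups of a comparison overlapped, and the R150X level lay below the WT level by -0.41 (SE 0.0550, adjusted p = 8.4e-06) without treatment and -0.22 (SE 0.0575, adjusted p = 0.0143) with OxLDL. The genotype call with OxLDL was lost without replicate 2 of the R150X OxLDL group or replicate 3 of the WT OxLDL group (adjusted p = 0.0552 to 0.0597). OxLDL lowered Pfkfb3 by -0.70 in R150X cells (SE 0.0567, adjusted p = 1.7e-09) and -0.89 in WT cells (SE 0.0561, adjusted p = 2.1e-11).

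Pfkfb4 moved the other way with OxLDL. It was at 71.5, 66.6 and 75.5 CPM in R150X cells with OxLDL, against 60.3, 53.3 and 64.9 CPM in untreated R150X cells, and at 73.8, 75.4 and 77.2 CPM in WT cells with OxLDL, against 52.7, 57.5 and 59.7 CPM in untreated WT cells. The rise was 0.26 in R150X cells (SE 0.0695, adjusted p = 0.00538) and 0.41 in WT cells (SE 0.0695, adjusted p = 4.66e-05), and the genotypes overlapped in both treatments. Per kilobase, Pfkfb3 held 60.6 ± 3.0% of the summed Pfkfb level in untreated R150X cells and 68.0 ± 1.5% in untreated WT cells (SD, n = 3). With OxLDL it held 44.6 ± 1.3% in R150X cells and 46.6 ± 1.1% in WT cells, while Pfkfb4 held 46.4 ± 1.6% and 44.3 ± 0.77%.

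In lower glycolysis, Eno1 was lower in R150X cells and lower with OxLDL. It stood at 784, 709 and 726 CPM in untreated R150X cells, against 813, 828 and 813 CPM in untreated WT cells, and at 589, 584 and 601 CPM in R150X cells with OxLDL, against 666, 638 and 669 CPM in WT cells with OxLDL. The genotype difference was -0.15 in both treatments (SE 0.0432 and 0.0434, adjusted p = 0.0134 and 0.0211), and the OxLDL response was -0.32 in R150X and -0.31 in WT cells (adjusted p = 3.42e-06 and 3.67e-06). The untreated genotype call was lost without replicate 2 of either untreated group (adjusted p = 0.0563 to 0.0696), and that with OxLDL without replicate 1 or 2 of the R150X OxLDL group or replicate 1 or 3 of the WT OxLDL group (adjusted p = 0.0588 to 0.0919). Eno1 shares 72.2% of its 50-base windows with near-identical genes such as Eno1b, so its level is uncertain. Pgk1, an X-linked gene, was at 401, 386 and 375 CPM in R150X cells with OxLDL, against 542, 488 and 496 CPM in untreated R150X cells, and at 440.0, 420.3 and 438 CPM in WT cells with OxLDL, against 548, 536 and 522 CPM in untreated WT cells. It fell with OxLDL by -0.39 in R150X and -0.31 in WT cells (adjusted p = 8.13e-07 and 1.72e-05). Between genotypes with OxLDL it was lower in R150X by -0.16 (adjusted p = 0.0288), a call lost without replicate 2 or 3 of the R150X OxLDL group or replicate 1 or 3 of the WT OxLDL group (adjusted p = 0.0691 to 0.126). Pgk1 shares 68.0% of its windows with pseudogenes.

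Pgam1 (phosphoglycerate mutase) was at 467, 448 and 450.3 CPM in R150X cells with OxLDL, against 427, 394 and 424 CPM in untreated R150X cells, and at 429.8, 447 and 456 CPM in WT cells with OxLDL, against 394, 397 and 402 CPM in untreated WT cells. It rose by 0.13 in R150X cells (adjusted p = 0.0238) and 0.16 in WT cells (adjusted p = 0.00604). Neither rise held with scaling by totals alone (adjusted p = 0.0539 in R150X and 0.422 in WT cells). The rise in R150X cells was also lost with low-count genes kept (adjusted p = 0.0753), with only the compared groups fitted (adjusted p = 0.0735), and without replicate 1 of the R150X OxLDL group or replicate 2 of the untreated R150X group (adjusted p = 0.0938 to 0.134). Pgam1 shares 41.5% of its windows with pseudogenes.

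Pkm, which encodes the pyruvate kinase that ends glycolysis, lies on chromosome 9 from 59656368 to 59679375 (GRCm38, plus strand). It stood at 2038, 1870.0 and 1948 CPM in untreated R150X cells, against 1808, 1785 and 1801 CPM in untreated WT cells, and at 1664, 1672 and 1752 CPM in R150X cells with OxLDL, against 1774, 1765 and 1832 CPM in WT cells with OxLDL. R150X cells lay above WT cells without treatment and below them with OxLDL. The untreated difference of 0.12 passed (SE 0.0386, adjusted p = 0.0227), and the difference with OxLDL of -0.08 did not (adjusted p = 0.215). The untreated call was lost without replicate 1 of the untreated R150X group or any 1 replicate of the untreated WT group (adjusted p = 0.0556 to 0.0775, the value being 0.08 without R150X replicate 1), with scaling by totals alone (adjusted p = 0.405), with low-count genes kept (adjusted p = 0.0624) and with only the compared groups fitted (adjusted p = 0.0824). OxLDL lowered Pkm in R150X cells by -0.20 (adjusted p = 0.000236), and the WT response was -0.01 (adjusted p = 0.913). With scaling by totals alone the WT response was -0.12 and called (adjusted p = 0.0112). Pkm shares 34.4% of its windows with other genes, mostly pseudogenes, and Gm49759, a gene of unconfirmed type annotated on the same strand over part of its exons, averaged 82.0 CPM.

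Gapdh, a glycolytic enzyme often used as a reference gene, could not be read in these libraries. It was counted at 6.46, 8.70 and 8.28 CPM in R150X cells with OxLDL, against 10.3, 12.9 and 72.9 CPM in WT cells with OxLDL, and at 10.8, 40.2 and 10.5 CPM in untreated R150X cells, against 17.4, 101 and 17.1 CPM in untreated WT cells. A single library stood far above the other 2 in 3 of the groups. No comparison passed, and the untreated genotype difference of -1.12 had a 95% interval of -2.45 to 0.20. Of the 50-base windows of its transcript 82.5% also occur in 218 other genes, 213 of them pseudogenes, and the labels do not state how reads that match several genes were counted.

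At the end of the pathway, Ldha makes lactate from pyruvate and Slc16a3 (MCT4), a HIF-induced transporter, exports it. Slc16a3 stood at 77.7, 70.3 and 72.6 CPM in untreated R150X cells, against 100.3, 100.5 and 109 CPM in untreated WT cells, and at 48.6, 54.5 and 56.6 CPM in R150X cells with OxLDL, against 76.3, 77.4 and 88.4 CPM in WT cells with OxLDL. R150X libraries lay below WT libraries in both treatments, by -0.49 (SE 0.0668, adjusted p = 9.15e-06) and -0.60 (SE 0.0698, adjusted p = 2.65e-06), which left 66.0% of the fitted WT level with OxLDL. OxLDL lowered Slc16a3 by -0.47 in R150X cells (adjusted p = 1.42e-05) and -0.36 in WT cells (adjusted p = 0.000152). Slc16a1 (MCT1), a transporter of lactate and pyruvate in either direction, passed in neither genotype comparison and fell with OxLDL by -0.29 in R150X and -0.34 in WT cells (adjusted p = 0.00446 and 0.000908). Per kilobase, Slc16a3 held 58.4 ± 3.0% of the summed level of Slc16a1, Slc16a3 and Slc16a7 in R150X cells with OxLDL, 69.1 ± 3.1% in WT cells with OxLDL, 64.5 ± 0.87% in untreated R150X cells and 71.9 ± 1.4% in untreated WT cells (SD, n = 3).

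Ldha was at 766, 660.0 and 667 CPM in untreated R150X cells, against 691, 666 and 690.2 CPM in untreated WT cells, where the groups overlapped (0.03, adjusted p = 0.658). With OxLDL it was at 534, 519 and 529 CPM in R150X cells, against 593, 579 and 605 CPM in WT cells, a difference of -0.17 without overlap (SE 0.0502, adjusted p = 0.0307) that was lost when any 1 of these 6 libraries was left out (adjusted p = 0.0533 to 0.116). OxLDL lowered Ldha by -0.40 in R150X cells (adjusted p = 1.16e-06) and -0.20 in WT cells (adjusted p = 0.00208). Ldha shares 17.1% of its 50-base windows with pseudogenes. Pdk1, a kinase that inhibits pyruvate dehydrogenase, was lower in R150X cells with OxLDL by -0.18 (adjusted p = 0.0419) and passed in no other comparison. That call was lost with DESeq2 (adjusted p = 0.0564), with scaling by totals alone (adjusted p = 0.0664), with low-count genes kept (adjusted p = 0.0804) and in 7 of 12 fits that left out 1 library, namely any of the R150X OxLDL group, replicate 2 of the WT OxLDL group or any of the untreated WT group (adjusted p = 0.0565 to 0.263).

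Whether the OxLDL response differed between genotypes was tested as an interaction, the log2 response in R150X cells minus that in WT cells. It passed for 2 of the 34 members, both lower, beside 8.32% of all genes, 5.19% lower and 3.13% higher. Bnip3l, which rose more with OxLDL in WT cells, had an interaction of -0.39 (SE 0.0793, adjusted p = 0.00312), and Pkm one of -0.20 (SE 0.0546, adjusted p = 0.0285). The Pkm call was lost with scaling by totals alone (adjusted p = 0.238) and without replicate 1 or 2 of the R150X OxLDL group, replicate 3 of the WT OxLDL group or any 1 replicate of the untreated WT group (adjusted p = 0.054 to 0.0865). The next members were Ldha at -0.20 (adjusted p = 0.0929) and Aldoa at -0.20 (adjusted p = 0.0945). Hif1a had an interaction of 0.18 with a 95% interval of 0.02 to 0.35 (adjusted p = 0.162), which was not called, and with scaling by totals alone it was 0.28 and called (adjusted p = 0.0331).

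Genes of the same pathway outside the 34 were read from lists, which were chosen with earlier results of these data known. Of 17 further glycolytic and glucose-transport genes that passed the filter, 4 rose and 2 fell in untreated R150X cells, a share of 35.3% near the 33.0% of all genes. With OxLDL 2 were higher and 2 lower in R150X, 23.5% beside 13.0% of all genes. Slc2a6, which encodes GLUT6, a lysosomal protein of the glucose transporter family, led them. It stood at 53.5, 54.0 and 56.9 CPM in untreated R150X cells, against 23.0, 21.9 and 22.9 CPM in untreated WT cells, and at 14.0, 15.4 and 14.7 CPM in R150X cells with OxLDL, against 7.52, 8.24 and 9.04 CPM in WT cells with OxLDL. All R150X libraries lay above the WT libraries of the same treatment, by 1.28 (adjusted p = 2.52e-11) and 0.83 (adjusted p = 1.43e-06), and OxLDL lowered it by -1.90 in R150X and -1.45 in WT cells (adjusted p = 8.22e-15 and 9.78e-12), with an interaction of -0.44 (adjusted p = 0.0213). Slc2a3 (GLUT3) was lower in R150X cells with OxLDL by -0.80 (adjusted p = 0.000243). With OxLDL, 5 of the 17 genes rose and 5 fell in R150X cells (58.8%, beside 39.0% of all genes), and 10 rose and 4 fell in WT cells (82.4%, beside 45.8%). Ldhb, the other lactate dehydrogenase subunit, rose by 0.31 in R150X cells (adjusted p = 0.00257) and 0.51 in WT cells (adjusted p = 9.2e-06), and its share of the 2 lactate dehydrogenase genes per kilobase was 8.35 ± 0.52% in R150X and 7.97 ± 0.25% in WT cells with OxLDL, against 5.28 ± 0.18% in untreated R150X and 5.005 ± 0.41% in untreated WT cells (SD, n = 3).

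Of the 13 genes of pyruvate dehydrogenase control and the mitochondrial pyruvate carrier, 7 rose and 2 fell in untreated R150X cells (69.2%, beside 33.0% of all genes), with a list median of 0.17 beside 0.01 for all genes. With OxLDL 1 was higher and 1 lower in R150X, a share of 15.4% near the 13.0% of all genes. Pdp1, the phosphatase that activates pyruvate dehydrogenase, was higher in R150X cells by 0.47 without treatment (adjusted p = 5.55e-05) and 0.25 with OxLDL (adjusted p = 0.0203). It rose with OxLDL by 0.52 in R150X cells (adjusted p = 4.02e-06) and 0.74 in WT cells (adjusted p = 3.49e-08). Mpc1, a subunit of the pyruvate carrier, was at 22.1, 19.95 and 19.8 CPM in untreated R150X cells, against 13.3, 15.9 and 10.3 CPM in untreated WT cells, without overlap (0.64, adjusted p = 0.000327), and it rose with OxLDL by 0.60 in R150X and 0.98 in WT cells (adjusted p = 0.00018 and 6.17e-07). In this list OxLDL raised 4 genes and lowered 3 in R150X cells (53.8%, beside 39.0% of all genes), and raised 5 and lowered 3 in WT cells (61.5%, beside 45.8%).

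Among 13 further components of the HIF pathway, 3 rose and 2 fell in untreated R150X cells, a share of 38.5% near the 33.0% of all genes. With OxLDL only Epas1, which encodes HIF2 alpha, was called between genotypes, 7.69% beside 13.0% of all genes. Epas1 stood at 149.9, 148 and 166 CPM in R150X cells with OxLDL, against 118, 126 and 129 CPM in WT cells with OxLDL, and at 121, 121 and 129.6 CPM in untreated R150X cells, against 122, 119 and 118 CPM in untreated WT cells. It was higher in R150X cells with OxLDL by 0.31 (adjusted p = 0.000413), the untreated difference was 0.05 (adjusted p = 0.503), and the interaction was 0.26 (adjusted p = 0.0421). Per kilobase, Hif1a held 50.5 ± 2.6% of the summed Hif1a and Epas1 level in R150X cells with OxLDL, 61.2 ± 2.3% in WT cells with OxLDL, 63.5 ± 1.5% in untreated R150X cells and 71.8 ± 0.94% in untreated WT cells (SD, n = 3). Egln2, the third prolyl hydroxylase, was higher in untreated R150X cells by 0.21 (adjusted p = 0.0328) and fell with OxLDL by -0.62 in R150X and -0.55 in WT cells (adjusted p = 1.03e-06 and 5.7e-06). In this list 3 genes rose and 6 fell with OxLDL in R150X cells (69.2%, beside 39.0% of all genes), and 1 rose and 5 fell in WT cells (46.2%, near the 45.8% of all genes).

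Among 38 further HIF targets that passed the filter, 21 (55.3%) fell and 4 (10.5%) rose in untreated R150X cells, beside 14.8% and 18.1% of all genes. With OxLDL 18 (47.4%) were lower and 2 (5.26%) higher in R150X cells, beside 6.92% and 6.1% of all genes. The list medians were -0.24 and -0.20. P4ha2, which like P4ha1 hydroxylates collagen, was lower in R150X cells by -0.82 without treatment (adjusted p = 1.64e-10) and -0.67 with OxLDL (adjusted p = 2.26e-08), and Lox, which crosslinks collagen, by -0.78 and -0.55 (adjusted p = 3.02e-11 and 1.19e-08). P4ha2 and Lox are also made by stromal cells, whose summed markers were 10877 to 10954 CPM in untreated R150X cells, against 16406 to 16613 CPM in untreated WT cells, and whose part in these differences was not tested. Against this direction, Tfrc, the transferrin receptor, rose in untreated R150X cells by 0.50 (adjusted p = 1.17e-06). With OxLDL 8 of the 38 rose and 16 fell in R150X cells (21.1% and 42.1%, beside 18.4% and 20.6% of all genes), and 10 rose and 18 fell in WT cells (26.3% and 47.4%, beside 22.7% and 23.1%). Nos2, which makes nitric oxide, fell by -3.27 in R150X and -3.45 in WT cells (adjusted p = 2.07e-12 and 5.04e-14).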

How the data were processed

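RNA was sequenced from 12 libraries of mouse BMDMs in 4 groups of 3. Per the labels' protocols, RNA extraction used the RNeasy Plus kit of Qiagen, and library preparation used the Hieff NGS Ultima Dual-mode kit. The authors deposited whole-number read counts per Ensembl gene, and the submitters' processing notes name FastQC, HISAT2, featureCounts, DESeq2, mm10 and GRCm38. The annotation release, the strand setting and the handling of reads that match several genes are not stated in the sources used here, so overlapping and antisense genes cannot be told apart.

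Columns were assigned to samples by name. Symbols, coordinates and transcript lengths came from GENCODE M21 on GRCm38, which matched 54495 of 54532 identifiers. A second, nearly silent row named Aldoa was kept apart. Of all genes, 15338 passed filterByExpr (by group). After TMM scaling, all 12 libraries entered 1 edgeR 4.0.16 model (R 4.3.3) that had a coefficient for each group. The quasi-likelihood test gave 5 comparisons, with Benjamini-Hochberg adjustment over all genes tested and calls at an adjusted p under 0.05. The common biological coefficient of variation was 0.0608. SEs and 95% intervals are those of the fitted log2 fold change, floors cover counting error only, and the script was tested on simulated counts. Shares within a family use CPM per kb of the principal transcript. Shared sequence was checked as 50-base windows of that transcript found in transcripts of other genes.

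The alternatives were scaling by library totals alone or by relative log expression, DESeq2 1.42.0, no filter on low counts, only the compared groups, the replicate number as a block, an adjusted p under 0.01, and leaving out each library. The members, the other lists, the marker lists and the tests were chosen with earlier results of these data known. Values in every library were given for up to 6 members per direction and comparison with the smallest adjusted p, and for Slc2a1, Hk2, Pfkfb3, Gapdh, Ldha, Slc16a3, Hif1a and Egln3. Of the other lists, genes were named from up to 3 per direction and comparison with the smallest adjusted p. The remaining values of named members, and values of named genes in comparisons where the rule did not pick them, were added after they were seen. The values of 1 gene of the further HIF targets are not reported here.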

Additional observations from a re-analysis of the deposited data

Results flagged for a closer look

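The OxLDL response differed between genotypes by the interaction test for 2 members, 5.88% of the 34, which is no more than the 8.32% of all genes. Bnip3l rose with OxLDL by 0.15 in R150X cells and by 0.54 in WT cells, a difference of -0.39 on the log2 scale (adjusted p = 0.00312). Pkm had OxLDL responses of -0.20 in R150X cells and -0.01 in WT cells, a difference of -0.196 (adjusted p = 0.0285). The Pkm call was lost in 6 of the fits that left out 1 library and with scaling by totals alone, as given above.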

How the results depend on the processing

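Of the 82 calls of members over the 5 comparisons, 61 were kept under every alternative other than the stricter threshold and 63 in all 12 fits that left out 1 library, and none changed direction. Relative log expression factors and the replicate block lost 0 calls, DESeq2 lost 2, omitting the filter 5, fitting only the compared groups 5, scaling by totals alone 9 and an adjusted p under 0.01 lost 18. Scaling by totals alone gained 9 calls, omitting the filter 7, fitting only the compared groups 4 and the replicate block 3. DESeq2 and relative log expression factors gained 0, and leaving out 1 library gained 0 to 9. At that threshold 3234 genes were called for genotype without treatment, 1169 with OxLDL and 623 in the interaction, with 7 members lower in R150X with OxLDL, 3 higher with OxLDL in R150X cells and 1 in the interaction. Scaling by totals alone left 3 members higher with OxLDL in each genotype, and the interaction then had 3 members higher and 1 lower. It moved the median log2 fold change of all genes with OxLDL in WT cells to -0.10, from 0.01, and the share of calls that were higher to 36.1% (from 55.0%) for genotype without treatment, 31.6% (from 49.6%) for OxLDL in WT cells and 66.5% (from 37.6%) in the interaction.

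Over the 12 fits that left out 1 library, all genes called ran from 3878 to 5126 (genotype, untreated), 1426 to 2599 (genotype, OxLDL), 5024 to 6039 (OxLDL, R150X), 6065 to 7604 (OxLDL, WT) and 893 to 1392 (interaction). Members lower ran from 12 to 15, 7 to 17, 17 to 19, 15 to 17 and 1 to 4 in that order, and members higher from 3 to 4, 2 to 2, 3 to 6, 5 to 7 and 0 to 0. The interaction had 4 members lower without replicate 2 of the untreated R150X group, and 1 without replicate 1 or 2 of the R150X OxLDL group, replicate 3 of the WT OxLDL group or any 1 untreated WT replicate.

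Over 18 pairs of samples with the same replicate number, deviations from the group means had r from -0.0418 to 0.162, 2 above 0.1. Between genotypes with OxLDL, same-number pairs had r of 0.0441 to 0.0682, and different-number pairs -0.0477 to -0.00769. Between genotypes without treatment, these were 0.0347 to 0.162 and -0.125 to 0.0275. Across treatments same-number pairs had r of either sign. Same-number samples thus deviated together weakly within a treatment. The labels give no pairing, and the main model did not take the numbers as pairs. With the replicate block the interaction called 4 members lower, and no other member count moved by over 1.5 times. With 3 libraries a group, small fold changes near the threshold are the least certain.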

Other observations

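Of the 38 further HIF targets, 8 had an OxLDL response that differed between genotypes, 5 higher and 3 lower in R150X, beside 8.32% of all genes tested. Ero1l, an oxidase of the endoplasmic reticulum, stood at 77.8, 82.5 and 77.9 CPM in untreated R150X cells, against 122, 120.4 and 118 CPM in untreated WT cells, while with OxLDL it stood at 73.9, 71.2 and 66.4 CPM in R150X cells, against 76.8, 76.0 and 73.0 CPM in WT cells. Its interaction was 0.50 (adjusted p = 0.00015). Vegfa, the vascular endothelial growth factor, was lower in untreated R150X cells by -0.21 (adjusted p = 0.00463) and higher in R150X cells with OxLDL by 0.19 (adjusted p = 0.0226), with an interaction of 0.40 (adjusted p = 0.00173). Tfrc rose with OxLDL by 0.79 in R150X and 1.42 in WT cells, an interaction of -0.64 (adjusted p = 2.57e-05).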
